A study of Mus musculus with 12 samples.

Results

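The 10 genes Cxcl1, Cxcl2, Cxcl5, Cxcl10, Cxcl12, Ccl2, Ccl7, Il6, Lif and Csf3 encode secreted chemokines and cytokines, and their transcript levels were followed through 4 states of mouse muscle stem cells (MuSCs). They were matched by exact symbol among the 55335 genes of the count files, where each was found once, and all 10 were among the 22635 genes that passed a filter on low counts. The group was chosen by measured values, because Cxcl1, Cxcl2 and Csf3 are among the largest rises in compressed against uncompressed cells. That comparison is therefore given without a test for these 10 genes.

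MuSCs were sorted by fluorescence from hindlimb muscle of adult Pax7-ZsGreen mice, which carry a green reporter under the Pax7 promoter, and 3 libraries were made for each group. F libraries hold freshly isolated cells lysed when sorted. 2d-U libraries hold cells after 2 days of culture on Matrigel- and fibronectin-coated plastic in growth medium, and 5d-U libraries hold cells after 5 days of the same culture, both without compression. 2+3d-C libraries hold cells cultured for 2 days and then held for 3 days under a silicone (PDMS) film on pillars that limits cell height. All groups share the reporter, and the 3 cultured groups share the coating and a medium with horse and fetal bovine serum, chicken embryo extract and FGF, so neither can be told apart from culture in a comparison with F. The reporter marks cells by 1 promoter, and the sort gate sets which other cells a library could still hold.

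Chemokines are small secreted proteins that draw leukocytes along a gradient. Cxcl1, Cxcl2 and Cxcl5 act on neutrophils through the receptor Cxcr2, Csf3 (G-CSF) drives the production and release of neutrophils, Ccl2 and Ccl7 draw monocytes through Ccr2, and Cxcl10 draws activated T cells through Cxcr3. Cxcl12 is the exception in kind, a constitutively made chemokine that holds cells in tissues and in the bone marrow through Cxcr4. Il6 and Lif signal through receptors that share the subunit gp130 (Il6st). In injured muscle neutrophils arrive first and monocytes follow, and most of these genes are induced within hours through NF-kappaB and silenced by rapid decay of their mRNA.

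Reads assigned to genes ranged from 12540745 to 62424851 per library, and 15365 to 47398 genes had at least 1 read. Pax7, the transcription factor that defines MuSCs, had 278 to 4503 reads in every library. Families of genes that stay silent in muscle carried 5.02 and 7.12 reads per kb of exon in F replicates 4 and 5, 3.81 in 5d-U replicate 1 and 0.627 in 5d-U replicate 6, against at most 0.219 in the others, so the lowest counts in those 4 libraries stand on a background. Replicates came from samples that are labelled as separate but not assigned to animals, so p-values measure only the spread between these libraries, which may be technical. In bulk RNA, fewer cells of a type and less RNA per cell cannot be told apart. The median gene moved too, by 1.63 in F against 2d-U, 1.13 in 5d-U against 2d-U, 0.41 in F against 5d-U, -0.76 in 2+3d-C against F, -1.05 in 2+3d-C against 5d-U and 0.00 in 2+3d-C against 2d-U (log2 fold change, first group over second), and values of the 10 genes are to be read against these shifts.

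Of the 10 genes, 5 lie on chromosome 5 in the mm10 build, 4 on chromosome 11 and 1 on chromosome 6. On the plus strand, Cxcl5 (chr5:90759360-90761624), Cxcl1 (chr5:90891241-90893115) and Cxcl2 (chr5:90903871-90905938) are neighbours in the cluster of CXC chemokines, and Il6 lies far from them at chr5:30013114-30019981. Cxcl10 (chr5:92346638-92348889) is on the minus strand, where 5.91% of its exon bases overlap the gene Art3. Ccl2 (chr11:82035571-82037453) and Ccl7 (chr11:82045712-82047525) are neighbours as well, and Lif (chr11:4257557-4272514) and Csf3 (chr11:98701263-98703629) stand alone. Cxcl12 lies at chr6:117168535-117181367. All but Cxcl10 are on the plus strand. A read of 75 bases could have come from another gene over 4.57% of the windows of Cxcl2 transcripts, which are shared with its paralog Cxcl3, over 2.47% of those of Cxcl10, shared with Art3, and over 0.623% of those of Cxcl5, so levels of Cxcl2 and Cxcl10 carry that uncertainty. The other 7 genes shared none.

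The RefSeq promoter table (GRCm38.p6) held 6 of the 10 genes, Cxcl1, Cxcl2, Cxcl10, Cxcl12, Il6 and Lif, and was read for the 250 bases before the transcription start. It was searched on both strands for the NF-kappaB consensus (kappaB), for the AP-1 motif TGANTCA, for the interferon-stimulated response element written as GAAANNGAAA, and for the TATA box TATAAA. The windows of 5 genes are shown 5′ to 3′ on the gene's strand, because they set 4 inducible genes beside Cxcl12, with every match in capitals. They cover chr5:90890995-90891244 (Cxcl1, plus strand), chr5:90903649-90903898 (Cxcl2, plus), chr5:92348890-92349139 (Cxcl10, minus), chr5:30012864-30013113 (Il6, plus) and chr6:117168285-117168534 (Cxcl12, plus).
Cxcl1: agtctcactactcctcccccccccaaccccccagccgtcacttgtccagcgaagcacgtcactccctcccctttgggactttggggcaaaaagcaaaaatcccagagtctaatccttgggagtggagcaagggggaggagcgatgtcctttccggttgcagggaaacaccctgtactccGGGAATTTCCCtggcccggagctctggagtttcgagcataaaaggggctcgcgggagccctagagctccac
Cxcl2: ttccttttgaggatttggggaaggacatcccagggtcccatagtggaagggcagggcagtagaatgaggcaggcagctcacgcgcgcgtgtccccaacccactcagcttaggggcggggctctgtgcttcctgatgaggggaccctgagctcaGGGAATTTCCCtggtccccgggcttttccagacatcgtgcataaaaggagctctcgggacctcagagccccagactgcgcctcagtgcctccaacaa
Cxcl10: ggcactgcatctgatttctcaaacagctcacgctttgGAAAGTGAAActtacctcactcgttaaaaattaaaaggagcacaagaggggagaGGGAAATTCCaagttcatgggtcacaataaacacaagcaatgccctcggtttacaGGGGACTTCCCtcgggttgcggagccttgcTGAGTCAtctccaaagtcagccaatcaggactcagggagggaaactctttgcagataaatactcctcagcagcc
Il6: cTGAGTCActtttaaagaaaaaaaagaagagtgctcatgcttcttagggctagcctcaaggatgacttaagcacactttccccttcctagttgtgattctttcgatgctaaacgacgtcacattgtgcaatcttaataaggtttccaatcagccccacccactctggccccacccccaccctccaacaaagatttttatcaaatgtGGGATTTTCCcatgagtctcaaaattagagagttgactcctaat
Cxcl12: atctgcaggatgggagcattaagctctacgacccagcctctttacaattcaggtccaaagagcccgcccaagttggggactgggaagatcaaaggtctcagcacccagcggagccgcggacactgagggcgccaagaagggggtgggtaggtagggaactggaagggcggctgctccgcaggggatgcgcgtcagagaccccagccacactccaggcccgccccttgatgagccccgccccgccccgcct

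A kappaB match stood in 5 of the 6 windows, against 7.25% of all 32851 promoters of the same length. Cxcl1 and Cxcl2 held the same 11 letters, read as 1 match on each strand, at 71 to 61 bases before the start in Cxcl1 and at 97 to 87 in Cxcl2. Cxcl10 held 3 kappaB matches, 2 of them overlapping, with an interferon element at 213 to 204 and an AP-1 match at 74 to 68 bases before its start. Il6 had a kappaB match at 44 to 35 and an AP-1 match at 249 to 243, and Lif (window not printed) had a kappaB match at 178 to 169 and an AP-1 match at 228 to 222. AP-1 thus matched in 3 of 6 windows (6.75% of all promoters), the interferon element in 1 (2.98%) and the TATA letters in 0 (12.4%), while Cxcl12 held none of the 4 motifs in these 250 bases. A match describes letters and not a bound factor.

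At the other end of the transcript, ATTTA pentamers in the 3′ untranslated region mark the AU-rich elements through which cytokine mRNAs are degraded. Cxcl2 had 11 of them in 734 bases, or 15.0 per kb, a density reached by 0.373% of 20091 genes. Il6 followed with 14.1 per kb and Cxcl1 with 11.8 per kb, densities reached by 0.453% and 0.806% of genes. Csf3 had 8.97 per kb, and Ccl7, Cxcl5, Ccl2, Cxcl10 and Lif had 4.6, 4.5, 3.64, 2.74 and 2.2. Cxcl12 had the lowest density, 4 pentamers in 5188 bases or 0.771 per kb, below the median of 1.2 per kb over all genes; the median of the 10 genes was 4.55.

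**Figure D1:**
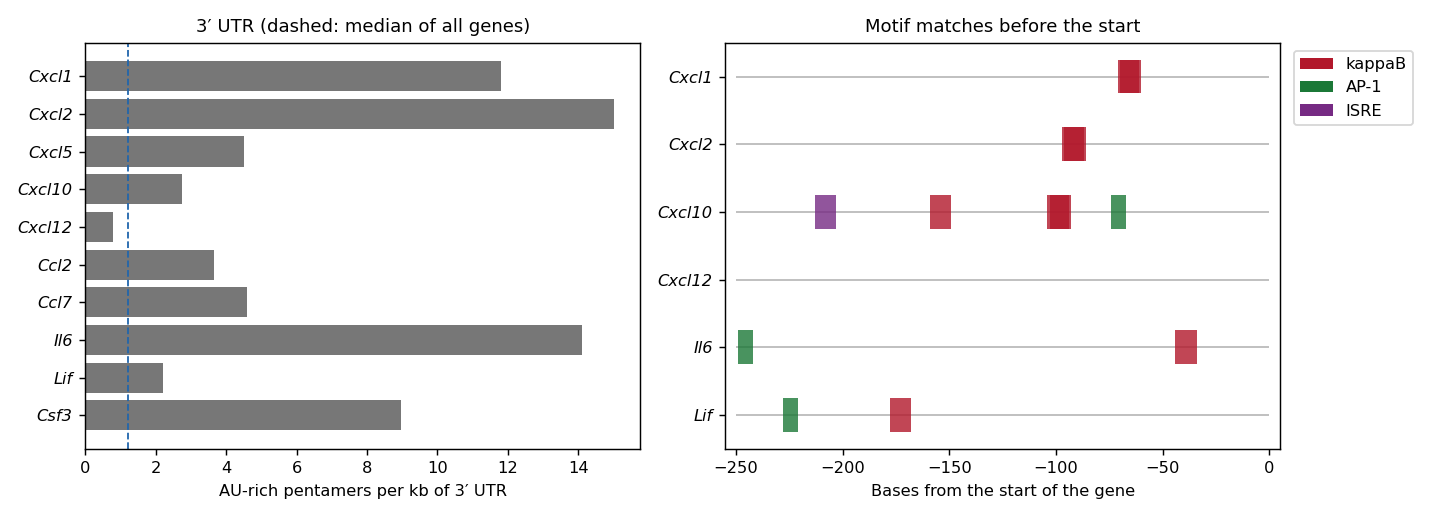
AU-rich pentamers per kb of 3′ untranslated region for the 10 genes, with the median of all genes as a dashed line (left), and kappaB, AP-1 and interferon-element matches by distance from the transcription start in the 6 promoter windows of 250 bases (right). Cxcl12 has no match and the lowest pentamer density of the 10 (0.771 per kb), and Cxcl2, Il6 and Cxcl1 have the highest (15.0, 14.1 and 11.8 per kb).

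Levels are RPKM, reads per kb of exon scaled to the size of the library after TMM normalization, in the order replicates 1, 4 and 5 of F, 1, 2 and 3 of 2d-U, 1, 2 and 6 of 5d-U and 4, 5 and 10 of 2+3d-C. Fold changes come from edgeR's quasi-likelihood fit to all 12 libraries and are given on the log2 scale with their standard error (SE) and an adjusted p, the Benjamini-Hochberg value over 22635 genes. A gene is called when that value is under 0.05. Of the tested comparisons, only F against 2d-U shares no library with the comparison by which the genes were chosen. The other 3 (2+3d-C against F, 5d-U against 2d-U, and F against 5d-U) each share 3 libraries with it, and the tested comparisons also share libraries with each other.

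**Figure D2:**
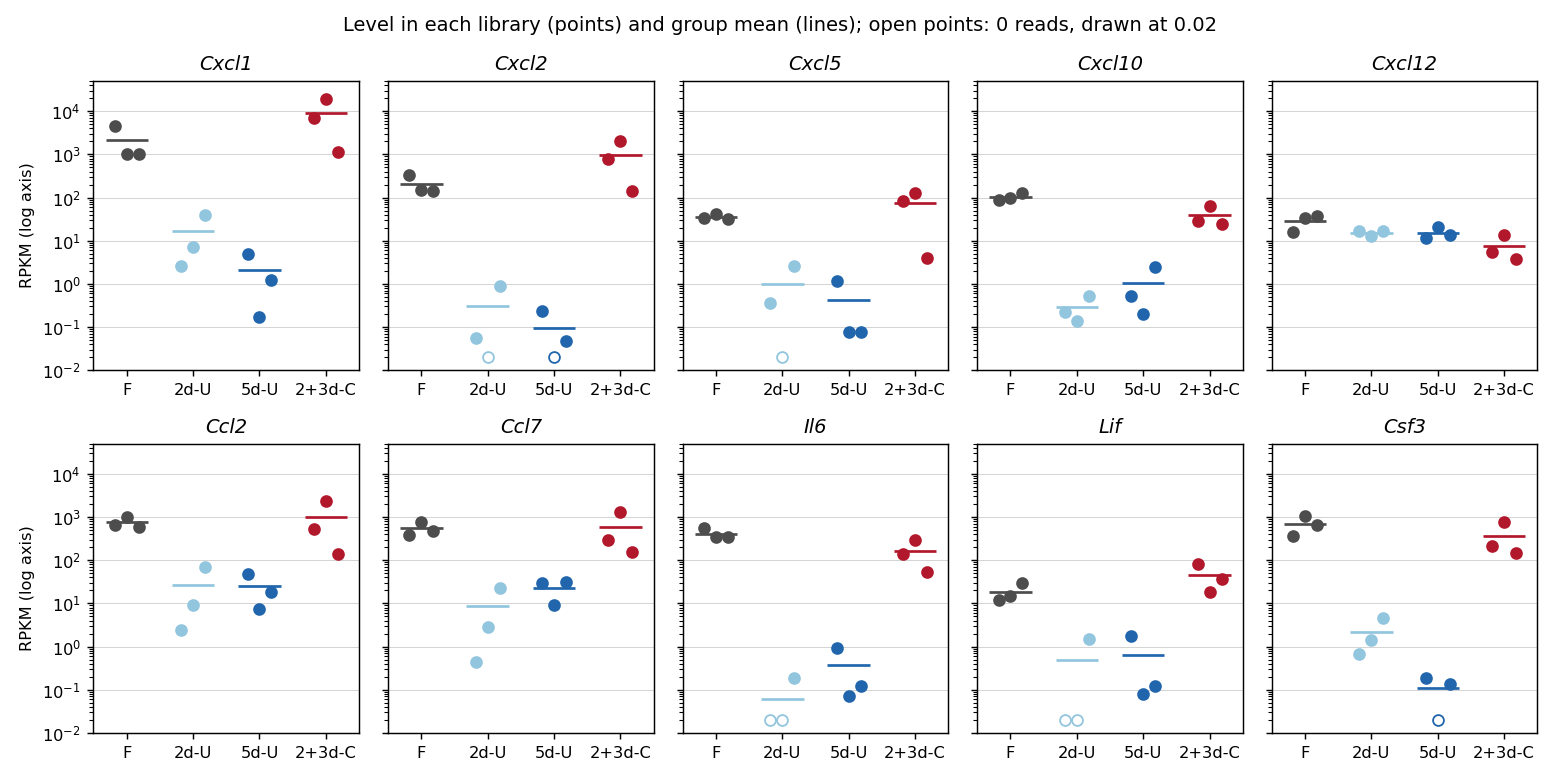
Level of each of the 10 genes in the 12 libraries (RPKM, log axis), one panel per gene, with a point per library, a line at the group mean and open points for libraries with 0 reads, drawn at 0.02. For 9 genes the 2+3d-C points lie above those of 2d-U and 5d-U without overlap, where 18.1% (against 2d-U) and 12.6% (against 5d-U) of all tested genes did. The F points of those 9 genes also lie above both. The share of all tested genes that did so is not given here, but 33.3% (against 2d-U) and 8.9% (against 5d-U) were called higher in F. Cxcl12 alone keeps its 4 groups within 3.83 to 37.7 RPKM.

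Cxcl1, the main neutrophil chemokine of the group, stood at 4480, 1016 and 1042 RPKM in F, at 2.53, 7.23 and 39.8 in 2d-U, at 4.92, 0.168 and 1.23 in 5d-U and at 6896, 18880 and 1159 in 2+3d-C. Ranked by RPKM, it was the third gene of all in F replicate 1 and the second in 2+3d-C replicates 4 and 5. Every F and every 2+3d-C library lay above every 2d-U and 5d-U library, the F and 2+3d-C ranges overlapped, and so did those of 2d-U and 5d-U. Cxcl1 was 132-fold higher in F than in 2d-U (log2 fold change 7.04 ± 1.47, SE, adjusted p = 0.0030, 3 libraries a group).

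Cxcl2, its neighbour and close relative, stood at 328.6, 153.0 and 141.8 RPKM in F, at 0.0549, 0 and 0.879 in 2d-U, at 0.231, 0 and 0.0473 in 5d-U and at 783.3, 1999 and 141.0 in 2+3d-C. The uncompressed cultures were thus near the limit of detection, with 6, 0 and 82 reads in 2d-U and 11, 0 and 2 in 5d-U, and the 11 reads of 5d-U replicate 1 compare with 7.89 expected from the background of silent genes. F exceeded 2d-U by a log2 fold change of 9.34 ± 1.57 (adjusted p = 0.00079). F and 2+3d-C overlapped, since 2+3d-C replicate 10 lay just under the lowest F library.

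Cxcl5, the third ligand of Cxcr2 here, was lower than both in F and 2+3d-C, at 33.5, 42.5 and 32.2 RPKM in F, at 0.355, 0 and 2.57 in 2d-U, at 1.14, 0.0749 and 0.0788 in 5d-U and at 84.7, 130.1 and 4.00 in 2+3d-C. The spread in 2+3d-C was 32.5-fold, the widest of the 10 genes in that group, and replicate 10 fell between the F and the uncompressed libraries. F was higher than 2d-U by 5.19 ± 1.5 on the log2 scale (adjusted p = 0.017).

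Csf3, the growth factor of neutrophils, was at 363.4, 1050 and 646.7 RPKM in F, at 0.656, 1.41 and 4.53 in 2d-U, at 0.185, 0 and 0.139 in 5d-U and at 211.1, 756.2 and 146.0 in 2+3d-C. It is the only 1 of the 10 genes whose 2d-U and 5d-U libraries did not overlap. The share of all tested genes without overlap is not given here, but 0.243% were called lower in 5d-U than in 2d-U. F was higher than 2d-U by 8.28 ± 1.07 on the log2 scale (adjusted p = 0.00013). From 2d-U to 5d-U it fell by 4.39 ± 1.014 (adjusted p = 0.042), a call at the edge of the threshold that was lost without F replicate 4 (0.053), F replicate 5 (0.063), 2d-U replicate 3 (0.11) or 5d-U replicate 6 (0.076) and when only these 2 groups were fitted (0.10). The 5d-U level rests on 6, 0 and 4 reads, and the 6 reads of replicate 1 compare with 5.39 expected from the silent-gene background.

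Ccl2, the classical monocyte chemokine, was at 638.3, 1026 and 602.3 RPKM in F, at 2.36, 9.36 and 70.5 in 2d-U, at 48.2, 7.60 and 18.3 in 5d-U and at 520.5, 2316 and 137.9 in 2+3d-C. It stayed well above detection in uncompressed culture, with 142 to 3621 reads in the 2d-U and 248 to 1262 in the 5d-U libraries. The F level was 4.78 ± 1.22 higher than that of 2d-U on the log2 scale (adjusted p = 0.0093). Ccl7, its neighbour and fellow ligand of Ccr2, was at 375.4, 777.6 and 485.1 RPKM in F, at 0.448, 2.79 and 22.9 in 2d-U, at 29.3, 9.10 and 31.6 in 5d-U and at 301.1, 1315 and 153.0 in 2+3d-C. Its F level exceeded that of 2d-U by 5.97 ± 1.24 (adjusted p = 0.0030). For both genes the 2+3d-C libraries spanned the F libraries on either side.

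Cxcl10, an interferon-induced ligand of Cxcr3, was at 86.5, 99.4 and 126.0 RPKM in F, at 0.218, 0.139 and 0.531 in 2d-U, at 0.522, 0.201 and 2.45 in 5d-U and at 28.5, 65.1 and 24.8 in 2+3d-C. It had the narrowest spread in 2+3d-C, 2.62-fold, and every 2+3d-C library lay below every F library and above every uncompressed one. F was higher than 2d-U by 8.43 ± 0.99 on the log2 scale (adjusted p = 6.77e-05). Against F, the 2+3d-C level was -1.40 on that scale, which did not pass the test (adjusted p = 0.17).

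Il6, a pleiotropic cytokine of the gp130 family, was at 561.5, 341.1 and 344.8 RPKM in F, at 0, 0 and 0.182 in 2d-U, at 0.931, 0.0719 and 0.121 in 5d-U and at 141.5, 295.6 and 52.2 in 2+3d-C. The 2d-U libraries were all but empty of it, with 0, 0 and 20 reads, where 3 reads correspond to 0.0567 and 0.118 CPM (reads scaled to library size) in replicates 1 and 2. F was higher than 2d-U by 12.62 ± 1.58 on the log2 scale (adjusted p = 0.00010), a size that rests on the 20 reads of replicate 3. As for Cxcl10, every 2+3d-C library lay below every F library, and the difference of -1.35 did not pass the test (adjusted p = 0.34).

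Lif, a relative of Il6 that promotes myoblast growth, was at 12.2, 14.5 and 29.2 RPKM in F, at 0, 0 and 1.49 in 2d-U, at 1.76, 0.0802 and 0.124 in 5d-U and at 82.0, 18.4 and 37.5 in 2+3d-C. It ran in another order from the rest within 2+3d-C, being highest in replicate 4 and lowest in replicate 5, whereas the other 9 genes were highest in replicate 5 and lowest in replicate 10. F was higher than 2d-U by 5.22 ± 1.71 on the log2 scale (adjusted p = 0.029), and the call was lost without F replicate 5 (adjusted p = 0.065) and when only the 2 groups were fitted (0.058). Without 2d-U replicate 3 all 292 reads of Lif in 2d-U are gone, and the fitted value then has no lower anchor.

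Cxcl12 was the exception, at 15.8, 34.2 and 37.7 RPKM in F, at 16.5, 13.2 and 16.4 in 2d-U, at 11.4, 20.5 and 13.6 in 5d-U and at 5.58, 13.2 and 3.83 in 2+3d-C. The difference of F from 2d-U was 0.93 ± 0.49 on the log2 scale (adjusted p = 0.12), below the shift of the median gene, and it passed the threshold without F replicate 1 (1.32, adjusted p = 0.027) and when only the 2 groups were fitted (0.049). It was lower in 2+3d-C than in F, by -1.96 ± 0.50 (adjusted p = 0.036), with every 2+3d-C library below every F library. That call was lost without F replicate 4 (0.12), F replicate 5 (0.12), 2+3d-C replicate 4 (0.079) or 2+3d-C replicate 10 (0.11).

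Across the group, 9 of the 10 genes were called higher in F than in 2d-U, all but Cxcl12, and 0 were called lower, where 33.3% of all tested genes were called higher and 10.6% lower. The median log2 fold change was 6.51, against 1.63 over all tested genes. 2d-U replicate 3 held the highest 2d-U level of each of those 9, and leaving it out raised every one of their fold changes, for Cxcl1 from 7.04 to 8.79 and for Ccl2 from 4.78 to 7.0. The count of called genes stayed at 9 without it, and over all single libraries left out it ran from 8 (without F replicate 5) to 10 (without F replicate 1).

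Few of them were called over culture time. From 2d-U to 5d-U 0 of the 10 genes were called higher and 1, Csf3, lower, where 1.87% and 0.243% of all tested genes were. The other 9 lay between -2.97 (Cxcl1, adjusted p = 0.12) and 2.50 (Il6, adjusted p = 0.14) on the log2 scale. Il6 and Lif were called higher without 2d-U replicate 3 (adjusted p = 0.048 and 0.041), which left 2d-U with 0 reads of both.

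F against 5d-U gave 8 genes higher and 0 lower, where 8.9% of all tested genes were called higher and 11.6% lower. Csf3 differed most, by 12.67 on the log2 scale (adjusted p = 5.51e-05), then Cxcl2 by 11.14 (0.00055), Il6 by 10.12 (0.00035) and Cxcl1 by 10.02 (0.00083). Cxcl10, Cxcl5, Ccl2 and Ccl7 differed by 6.63, 6.38, 4.93 and 4.55, with adjusted p from 0.00028 to 0.011. Lif at 4.83 (adjusted p = 0.056) and Cxcl12 at 0.95 (0.21) did not pass; Lif passed in 11 of 18 alternative fits.

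Compressed cells against freshly isolated ones gave 0 of the 10 genes higher and 1, Cxcl12, lower, where 1.94% of all tested genes were called higher and 4.47% lower. The 9 others ranged from -1.40 (Cxcl10) to 2.23 (Cxcl2, adjusted p = 0.16) on the log2 scale, with a median over the 10 genes of 0.25 against -0.76 over all tested genes. Their intervals were wide. For Cxcl1 the difference was 2.04, with a 95% interval of -0.46 to 4.54, and Ccl2 at 0.39 had an interval of -1.84 to 2.62, so differences of several fold in either direction were not detectable for most of the group. Cxcl1 and Cxcl2 were called higher when no filter on low counts was applied (adjusted p = 0.00011 and 0.00028) and when replicate number was fitted as a block (0.0016 and 0.0021).

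Compressed against 5-day uncompressed cells is the comparison from which the genes were chosen, and its values are a description. The log2 fold change was 13.37 for Cxcl2, 12.06 for Cxcl1 and 11.78 for Csf3, which rank 2, 4 and 5 among the rises of 22635 genes. Il6 rose by 8.77 (rank 39), Cxcl5 by 7.39 (98), Lif by 6.13 (210), Ccl2 by 5.33 (343), Cxcl10 by 5.23 (362) and Ccl7 by 4.66 (553), while Cxcl12 was at -1.01, beside a median gene at -1.05. The libraries of 9 genes did not overlap, all with 2+3d-C higher, where 12.6% of tested genes did not overlap in that direction and 29.7% in the other; 9.14% and 13.4% of tested genes were called higher and lower. Leaving out 2+3d-C replicate 5 lowered the values of Cxcl1 to 10.91 and of Ccl2 to 3.74, and leaving out 5d-U replicate 1 raised them to 13.66 and 6.25. Against 2d-U, 2+3d-C again lay above without overlap for the same 9 genes and with overlap for Cxcl12 (-1.03), where 18.1% of tested genes did not overlap with 2+3d-C higher and 17.4% with it lower, and the median over the 10 genes was 6.77.

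**Figure D3:**
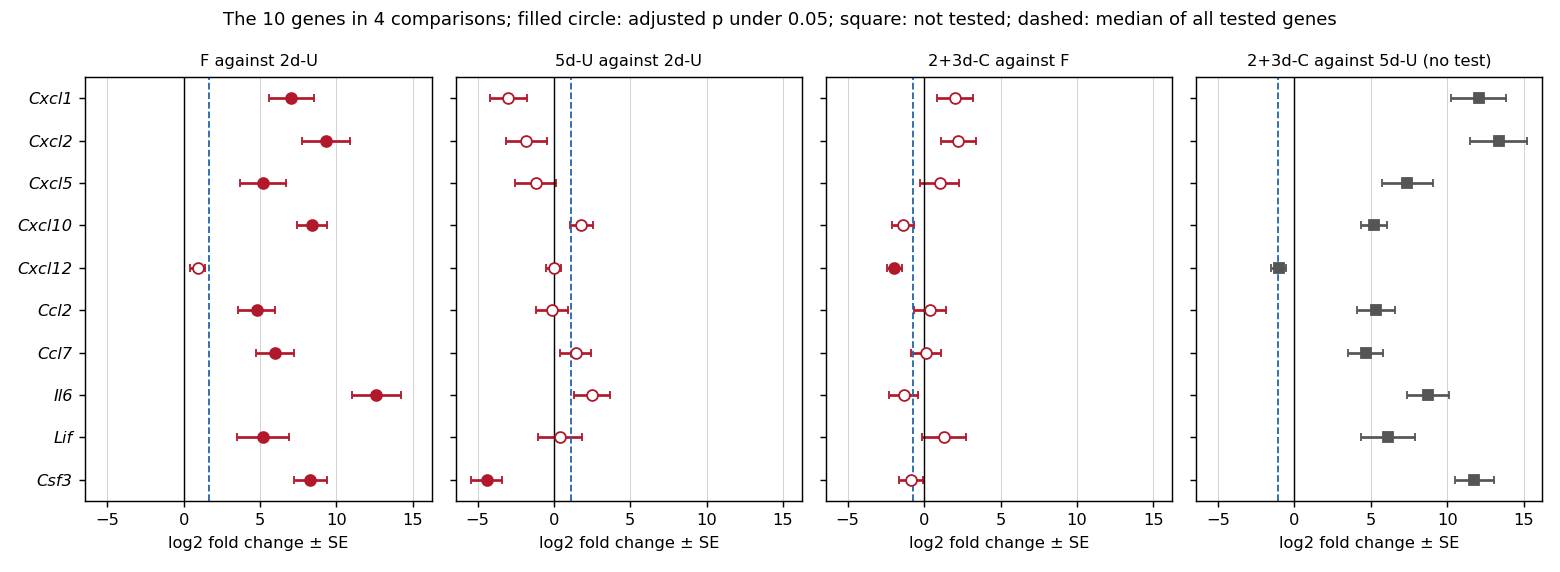
Log2 fold changes ± SE of the 10 genes in 4 comparisons from the edgeR fit, with filled circles for genes called, open circles for genes not called, squares for the comparison given without a test, and a dashed line at the median of all tested genes. For 9 genes the values lie far above the median gene in F against 2d-U and in 2+3d-C against 5d-U and between -1.40 and 2.23 in 2+3d-C against F, and Cxcl12 stays between -1.96 and 0.93 throughout.

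The make-up of the group by level differed between states. Cxcl1 made up 62.4 to 76.2% of the summed RPKM of the 10 genes in 2+3d-C and 22.3 to 65.0% in F. Cxcl12 made up 71.3, 38.6 and 10.3% in the 2d-U libraries and 11.5, 54.3 and 20.1% in the 5d-U libraries, but at most 0.206% in 2+3d-C. Summed over the 10 genes, the level was 3488 to 6895 RPKM in F, between 23.1 and 159.7 in the 2d-U libraries and between 37.8 and 98.6 in those of 5d-U. In 2+3d-C replicates 4, 5 and 10 it was 9054, 25790 and 1859 RPKM, the last below every F library.

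**Figure D4:**
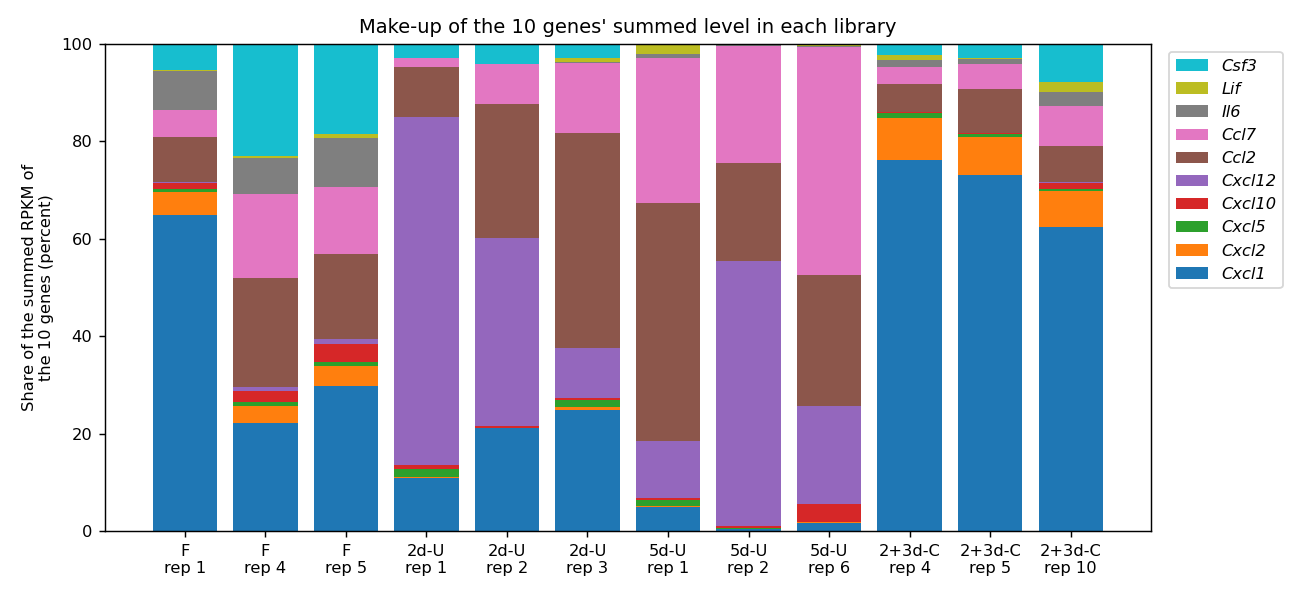
Share of each of the 10 genes in their summed RPKM (percent, stacked to 100) in each of the 12 libraries. Cxcl1 fills over 62% of every 2+3d-C bar, and Cxcl12, Ccl2 and Ccl7 fill most of the uncompressed bars.

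Ratios between neighbours were steadier than levels within 2+3d-C. Cxcl1 varied there 16.3-fold and Cxcl2 14.2-fold between libraries, but the RPKM ratio of Cxcl1 to Cxcl2 was 8.80, 9.45 and 8.22. It was 13.6, 6.64 and 7.35 in F. The ratio of Ccl2 to Ccl7 was 1.73, 1.76 and 0.902 in 2+3d-C and 1.70, 1.32 and 1.24 in F, so both pairs kept similar proportions where they were abundant. The ratio of Il6 to Cxcl1 did not overlap between those groups, at 0.125, 0.336 and 0.331 in F and 0.0205, 0.0157 and 0.0450 in 2+3d-C. The ratio of Csf3 to Cxcl1 did overlap, at 0.0811, 1.03 and 0.621 in F and 0.0306, 0.0401 and 0.126 in 2+3d-C.

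Over the 12 libraries, which share the contrast between induced and uninduced groups, the 36 pairs among the 9 genes without Cxcl12 had Pearson correlations of log2 CPM from 0.822 to 0.975 (median 0.915), and Cxcl12 had -0.195 to 0.0558 with the 9. Likeness was compared over 8830 genes whose mean CPM reached 10, and those most alike to Cxcl1 were Nfkbie (r = 0.989), an inhibitor of NF-kappaB, Cyp2d22 (0.979), Cxcl2 (0.975), Chodl (0.975) and Cxcl16 (0.970). For Cxcl2 they were Pde4b (0.984), Nmi (0.984), Zfp36 (0.982), Tnfaip6 (0.982) and Ppp1r15a (0.982). For Csf3 they were Tspan7 (0.981), Nr4a1 (0.979), Add3 (0.973), Selenop (0.972) and Irf8 (0.972).

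The receptors of the inflammatory ligands were low in level. Counts over the gene lists that follow stand beside 33.3% of all tested genes called higher and 10.6% lower in F against 2d-U, and 9.14% and 13.4% in 2+3d-C against 5d-U. A list gene at 0 reads in culture could enter the test only through the group where it was high, so for such genes the call in F against 2d-U is largely set by the filter, and their number is given. Cxcr2, the receptor of Cxcl1, Cxcl2 and Cxcl5, had a mean of 2.08 RPKM in F, 0 in 2d-U, 0.0345 in 5d-U and 0.0882 in 2+3d-C, and Cxcr1 did not pass the filter. Ccr1 and Ccr2 had means of 4.82 and 2.35 RPKM in F and were at 0 reads in every 2d-U and every 2+3d-C library, and Cxcr3 had 0.261 RPKM in F and 0 in the same groups. Cxcr4, the receptor of Cxcl12, was at 6.39 RPKM in F, 0.904 in 2d-U, 1.68 in 5d-U and 6.10 in 2+3d-C. The scavengers were more abundant, with Ackr3, which removes Cxcl12, at 169.7, 24.9, 27.0 and 326.1 RPKM, and Ackr1, which binds many inflammatory chemokines, at 253.4, 0.149, 0.346 and 53.6 RPKM in the same group order. In 2+3d-C against 5d-U both were called higher, Ackr3 by 3.59 (adjusted p = 0.00020) and Ackr1 by 7.28 (0.0035). Of 16 chemokine receptors and scavengers that passed the filter, 13 were at 0 reads in every 2d-U library and 9 in every 2+3d-C library, so their calls in F against 2d-U are not counted here. In compressed (2+3d-C) against 5d-U cells 3 were called higher and 4 lower, but with only these 2 groups fitted 4 passed the filter, of which 3 were called higher and 0 lower. The 4 lower calls also fell to 0 without 2+3d-C replicate 4, to 1 without 5d-U replicate 1 or 2+3d-C replicate 10, and to 2 without any of F replicates 1, 4 and 5, 5d-U replicate 6 and 2+3d-C replicate 5.

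Among receptors of the cytokines, Il6st, the gp130 subunit, had means of 63.7 RPKM in F, 3.85 in 2d-U, 1.80 in 5d-U and 49.1 in 2+3d-C, and was called higher in compressed than in 5d-U cells by 4.77 (adjusted p = 0.00016). Lifr, the partner of gp130 for Lif, was at 8.03, 0.298, 0.485 and 2.27 RPKM and rose by 2.23 (0.0033), whereas Il6ra, the partner for Il6, was at 2.21, 0.0794, 0.118 and 0.323 RPKM and did not pass (1.48, adjusted p = 0.43). Csf3r, the receptor of Csf3, was at 3.14, 0, 0.0738 and 0.402 RPKM in the same order. Of 13 cytokine receptors tested, 12 were called higher in F than in 2d-U (1 of the 13 was at 0 in 2d-U) and 9 higher and 0 lower in compressed than in 5d-U cells. With replicate number fitted as a block the higher calls were 5 and 3.

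Other chemokines were listed for comparison, 28 in all, of which 23 passed the filter. Of the 23, 15 were at 0 reads in all 2d-U libraries, so the calls of this list in F against 2d-U are not counted here. Against 5d-U, 2+3d-C had 9 higher and 0 lower (1 lower without 5d-U replicate 2). Over 18 alternative fits the counts ran from 6 to 11 higher and from 0 to 2 lower. The most abundant were Cxcl3, a neutrophil chemokine that shares windows with Cxcl2, at 36.0 RPKM in F, 0.216 in 2d-U, 0.453 in 5d-U and 303.6 in 2+3d-C, and Ccl11 (eotaxin) at 338.1, 0, 0.203 and 160.5 RPKM. Cxcl16 was at 38.8, 1.595, 0.940 and 54.4 RPKM and Cx3cl1 at 27.8, 5.95, 1.31 and 25.5. All 4 were called higher in compressed than in 5d-U cells, by 9.39, 9.59, 5.86 and 4.29 on the log2 scale.

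Of 22 other cytokines listed 19 were tested, 7 of them at 0 reads in every 2d-U library, and 15 were called higher and 1 lower in F than in 2d-U and 3 higher and 1 lower in compressed than in 5d-U cells. The 15 fell to 9, 7 and 8 without F replicate 5, 2d-U replicate 2 and 2d-U replicate 3, and the 3 to 1 without 5d-U replicate 6 or 2+3d-C replicate 5, and rose to 6 without 2+3d-C replicate 10. Clcf1, another gp130 ligand, was at 23.5, 9.69, 5.97 and 217.9 RPKM, higher in compressed than in 5d-U cells by 5.19 (adjusted p = 3.01e-05) and than in F by 3.22 (0.0038). Il34, a ligand of the macrophage receptor Csf1r, fell in both comparisons, by 2.49 in F against 2d-U (0.0011) and by 2.21 in 2+3d-C against 5d-U (0.0026). Csf1 stood at 124.7, 337.8, 70.1 and 95.6 RPKM in the 4 groups and passed in none of the 3.

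Upstream of the cytokines, all 12 genes listed as inducers and coactivators were called higher in F than in 2d-U, and 10 were called higher and 1, Irak2, lower in compressed than in 5d-U cells. Over 18 alternative fits the higher calls ran from 8 to 12 and from 7 to 11. The list is not of activators only, since it holds the inhibitor Irak3, called higher in both comparisons (5.98 and 6.37). Cebpb, a transcription factor of Il6 and Csf3, was at 629.5, 75.5, 70.7 and 2881 RPKM in the 4 groups and was higher in 2+3d-C than in F by 2.19 (adjusted p = 0.032), a call lost without F replicate 4, F replicate 5 or 2+3d-C replicate 5. Cebpd was at 149.5, 3.16, 6.72 and 479.8 RPKM, Nfkbiz, a coactivator of NF-kappaB at the Il6 promoter, at 84.8, 1.54, 1.604 and 93.1, and Myd88, the adaptor of Toll-like receptors, at 72.0, 13.5, 12.02 and 97.6. Of 9 genes listed for cytokine mRNA decay, whose median log2 fold change of 0.99 in F against 2d-U lay below the 1.63 of the median gene, 4 were called higher and 1 lower in F than in 2d-U (0 lower without F replicate 4, 2d-U replicate 1 or 2d-U replicate 3) and 6 higher and 0 lower in compressed than in 5d-U cells. The list also holds Elavl1 and Tnfaip3, which are not decay factors themselves. Tnfaip3 is among the higher calls of both comparisons (5.08 and 6.68). Zfp36 (tristetraprolin), which binds AU-rich elements, was at 296.6, 3.82, 3.03 and 411.9 RPKM and Zfp36l1 at 109.1, 16.7, 5.37 and 141.9, whereas Elavl1, which stabilises such mRNAs, was at 27.4, 44.9, 37.0 and 43.6.

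Interferon-induced genes, the company of Cxcl10, were called higher in F than in 2d-U for 12 of 12 tested (13 listed, and 5 of the 12 at 0 in 2d-U) and in compressed than in 5d-U cells for 9, with 0 lower in either. Over 18 alternative fits these higher counts ran from 9 to 13 and from 4 to 10. Ifit1 was at 99.2, 0, 0.358 and 20.9 RPKM in the 4 groups in that order, Rsad2 at 28.2, 0.0102, 0.238 and 5.92 and Irf9 at 13.8, 0.229, 0.567 and 15.2.

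Between 2+3d-C and F the counts of these lists changed with single libraries and with the tool. Where 1.94% of all tested genes were called higher and 4.47% lower, 0 of 23 other chemokines were higher and 4 lower, of 16 chemokine receptors and scavengers 0 and 7, of 19 other cytokines 1 and 4, of 13 cytokine receptors 0 and 1, of 12 inducers 1 and 1, of 9 decay genes 0 and 0 and of 12 interferon-induced genes 0 and 1. DESeq2 with its own size factors gave 9 other chemokines, 8 chemokine receptors and scavengers, 8 other cytokines, 3 cytokine receptors, 3 inducers and 5 interferon-induced genes lower. Without F replicate 4 or F replicate 5 the lower calls were 1 of other chemokines, 2 of chemokine receptors and 0 of other cytokines, and without F replicate 1 they were 11 of other chemokines, 9 of chemokine receptors, 7 of other cytokines and 6 of interferon-induced genes.

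Markers of other cell types also differed between the groups. The 18 immune markers summed to 889.7 to 3115 CPM in F, to between 7.53 and 18.0 in 2d-U, to between 23.3 and 194.1 in 5d-U and to 22.35 to 284.1 in 2+3d-C. Of the 18, 10 were at 0 reads in every 2d-U library and entered the test through the groups where they were present, so their calls in F against 2d-U are not counted here. Ptprc (CD45), which defines leukocytes, had 3365, 880 and 1230 reads in F and 209, 1 and 23 in 5d-U, but 0 in every 2d-U and 2+3d-C library. Adgre1, Cd3e and Nkg7 were also at 0 in every 2+3d-C library. Others of the list were present there, with Lyz2 at 1491, 582 and 114 reads and means of 27.1 RPKM for Cd14, 27.5 for S100a8, 4.02 for Tyrobp and 3.06 for Cd68, beside 6.66, 10.9, 0.803 and 4.28 RPKM in 5d-U. Of these Cd14 was called higher (adjusted p = 0.034), and 1 of the 18 markers was called higher and 2 lower in compressed than in 5d-U cells (4 higher without 5d-U replicate 1, 2 without 2+3d-C replicate 10, and 0 without 5d-U replicate 2 or 2+3d-C replicate 5). Within 2+3d-C the immune sum was 118.9, 284.1 and 22.35 CPM in replicates 4, 5 and 10, the same order as that of Cxcl1, with S100a9, a neutrophil gene, at 47.9, 119.2 and 0 RPKM. Within 2d-U it was lowest, 7.53 CPM, in replicate 3, where 9 of the 10 genes were highest.

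Non-immune markers moved as well. Fibroadipogenic markers (11 genes) summed to 5408 to 34170 CPM in F, to between 326.4 and 435.2 in 2d-U, to between 176.7 and 310.3 in 5d-U and to 2295 to 4430 in 2+3d-C, with 10 called higher in F than in 2d-U and 5 higher and 1 lower in compressed than in 5d-U cells (2 higher without TMM, 3 higher without 5d-U replicate 6 or 2+3d-C replicate 5, and 0 lower without 5d-U replicate 1 or 2+3d-C replicate 4). Dpp4 was at 0 in every 2d-U and 2+3d-C library, whereas Dcn, Lum and Gsn had means of 44.5, 17.6 and 707.4 RPKM in 2+3d-C and of 2.45, 1.17 and 27.7 in 5d-U. In every 2d-U library 4 of the fibroadipogenic, 2 of the endothelial, 5 of the pericyte and 2 of the glial markers were at 0 reads. For these markers the call in F against 2d-U is largely set by the filter. Endothelial markers (10 genes) summed to 1443 to 2255, 11.9 to 14.9, 8.2 to 47.7 and 288.5 to 371.3 CPM, with 10 called higher in F than in 2d-U and 8 in compressed than in 5d-U cells. Pericyte and smooth muscle markers (7 genes) summed to 798.6 to 1069, 62.7 to 87.8, 62.4 to 731.7 and 276.2 to 440.7 CPM. Acta2 supplied most of the 5d-U sum in replicates 2 and 6, with 18195 and 14636 reads. Mean RPKM in 5d-U and 2+3d-C was 211.9 and 103.6 for Acta2, but 0.695 and 7.89 for Rgs5 and 0.134 and 7.035 for Myh11. Of the 7 pericyte and smooth muscle markers, 5 were called higher in compressed than in 5d-U cells (3 without 5d-U replicate 6). Acta2 was not among the 5, and over 18 alternative fits the count ran from 1 to 5. The calls of this list in F against 2d-U are not counted here. Glial markers (5 genes) summed to 430.1 to 736.3, 2.17 to 2.63, 5.86 to 10.96 and 183.3 to 611.2 CPM. Of them 5 were called higher in F than in 2d-U and 3 in compressed than in 5d-U cells. MuSC markers (11 genes) summed to 3597 to 9109, 3038 to 3501, 2726 to 4009 and 18920 to 24960 CPM, with 4 called higher and 1, Pax7, lower (-1.20, adjusted p = 0.0498) in F than in 2d-U and 8 higher in compressed than in 5d-U cells. The Pax7 call was at the edge of the threshold, and the list's lower count was 0 to 2 with a library left out. Within 2+3d-C the MuSC sum (20680, 24960 and 18920 CPM in replicates 4, 5 and 10), the endothelial sum (360.3, 371.3 and 288.5) and the glial sum (307.0, 611.2 and 183.3) had the same order as Cxcl1, and the fibroadipogenic sum (2730, 2295 and 4430) had the opposite order. The pericyte and smooth muscle sum (276.2, 358.6 and 440.7) had neither order. Single genes of the fibroadipogenic list did not all follow its sum. Gsn, the most abundant of them, had the order of that sum, at 551.2, 455.2 and 1116 RPKM. Lum (14.2, 32.6 and 6.05 RPKM) had the order of Cxcl1, and Dcn (26.4, 75.2 and 31.9 RPKM) had neither order. An order over 3 libraries is weak evidence of a link, and none was tested. The part of other cells in the levels of the 10 genes was not tested.

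**Figure D5:**
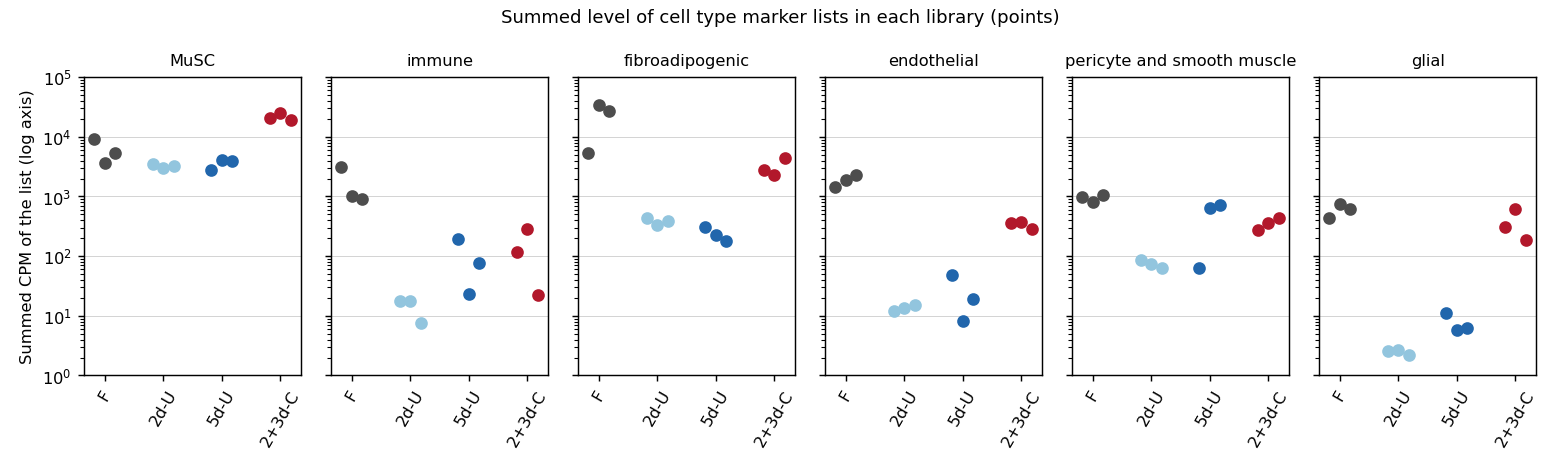
Summed CPM (log axis) of each marker list in the 12 libraries, a point per library, by group. Immune, fibroadipogenic and endothelial sums are higher in every F library than in any other, and in 2+3d-C the immune sum spans 22.35 to 284.1 CPM while the MuSC sum is above that of every other group.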

How the data were processed

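RNA of sorted MuSCs was amplified by SMART-seq v4 and read as single ends of 75 bases. The authors deposited counts of reads per gene, made with featureCounts 1.6.4 over exons without strand (nf-core rnaseq pipeline, mm10, GENCODE vM23), and the aligner is not given in the sources used here. The merged table held the same values for all 12 libraries. Totals of 12540745 to 62424851 reads set the precision, and since PCR copies were not collapsed, limits from counts of 0 cover counting error only.

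Counts were fitted with edgeR 4.0.16 in R 4.3.3 (TMM, filterByExpr, quasi-likelihood test over all 12 libraries, Benjamini-Hochberg adjustment over 22635 genes, threshold 0.05), and RPKM was computed from the exon lengths in the files. The steps were tested on simulated data. DESeq2 1.42.0, no TMM, no filter, only the groups compared, a replicate block, subtraction of reads expected from silent families and leaving out each library were alternatives. The 10 genes and all lists were chosen with earlier results of these data known. Named beside them are, by rule, list genes of the highest mean CPM or largest change, 12 receptors, and the 5 genes most alike to Cxcl1, Cxcl2 and Csf3 by Pearson correlation of log2 CPM (prior count 2); S100a9, Il34, Irak2 and the immune, fibroadipogenic and MuSC markers given singly were named after their values were seen.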

Additional observations from a re-analysis of the deposited data

How the results depend on the processing

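In F against 2d-U 9 genes were called higher with each of DESeq2, no TMM, no filter, only 2 groups, the block and silent-family reads subtracted, and 8 to 10 with a library left out. In F against 5d-U these 6 alternatives called 8 to 10, and leaving out a library 8 to 9. In 2+3d-C against F, 2 genes were called higher without the filter and 2 with a replicate block (0 otherwise), and 0 to 1 lower when a library was left out. In 5d-U against 2d-U, 1 gene was called higher without the filter, 3 with the block and 0 to 2 with a library left out, and 2 were called lower with DESeq2, 3 without the filter, 0 with only the 2 groups and 0 to 1 with a library left out. With a library left out, the median log2 fold change of the 10 genes ran from 6.24 to 9.33 in 2+3d-C against 5d-U and from 6.32 to 8.54 in 2+3d-C against 2d-U, the highest without 5d-U replicate 1 and without 2d-U replicate 3. The cause of these changes was not tested.

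Directions turned in these cases. In 2+3d-C against F, Ccl2 was -0.306 without TMM and -1.18 to 0.91 with a library left out, and Ccl7 was -0.157 with DESeq2, -0.583 without TMM, -0.27 with only 2 groups, -0.126 with silent-family reads subtracted and -1.25 to 0.57 with a library left out. In 5d-U against 2d-U, the replicate block gave Ccl2 2.03, Cxcl12 0.0533, Cxcl2 1.98 and Cxcl5 2.06, and leaving out a library gave Ccl2 -1.08 to 2.08, Cxcl12 -0.35 to 0.16, Cxcl2 -3.85 to 1.39, Cxcl5 -3.64 to 1.16 and Lif -2.30 to 9.41. Scaling moved the median of all genes, which in 2+3d-C against F was -0.76 with TMM, -1.01 with DESeq2 and -1.24 without TMM, and in 5d-U against 2d-U was 1.13, 0.93 and 0.65.

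The labels do not say whether a replicate number marks a shared batch. Deviations of same-numbered libraries from their group means correlated from -0.42 to 0.032 over 22635 genes. Differently numbered libraries were not compared, so these values cannot decide whether batches were shared. With the replicate block the counts were 9 in F against 2d-U and 8 in F against 5d-U, and the medians were 6.16 in 2+3d-C against 5d-U and 8.22 in 2+3d-C against 2d-U, and 0 fibroadipogenic markers were called higher in 2+3d-C against 5d-U (5 without the block). In 2+3d-C against 5d-U the block also cut the higher calls of endothelial, glial and MuSC markers from 8, 3 and 8 to 2, 2 and 5. Genes of the decay list fell from 6 to 4 and cytokine receptors from 9 to 3. Chemokine receptors and scavengers stayed at 3, and immune markers went from 1 to 2. With 3 libraries a group and up to 32.5-fold spread in 2+3d-C, differences from F of several fold could pass undetected, and levels resting on 0 to 20 reads set no size for a fold change.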
